A study of Drosophila melanogaster with 16 samples.

Results

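Male and female whole heads of Drosophila melanogaster were compared through their total mRNA, the poly(A)-selected RNA of a head lysate taken before any ribosome pull-down. The members are the 4 libraries labelled male input and the 4 labelled female input, 8 of the 16 libraries of the series, and they were chosen by label alone. The remaining 8 libraries hold mRNA that was pulled down on tagged ribosomes of fru P1 neurons (translating ribosome affinity purification, TRAP) from the same kind of lysate, and they are used here only to ask whether a sex difference of the whole head differed from that of the pull-down. Each sample pooled about 1000 sex-sorted adults of 10 to 12 days, frozen 1 to 2 h after lights on. All 4 groups of the series, males and females alike, had a w X chromosome, paired with a second w X in females and with a Y in males, and carried 1 copy each of UAS-Gal4 and UAS-GFP::RpL10A, both insertions marked with w+mC, and of fru P1-Gal4, so that fru P1 neurons of both sexes carried a tagged ribosomal protein and no unmodified strain is among the libraries. The Gal4 driver is set by the fru P1 promoter, whereas the total mRNA comes from every tissue of the head, and a difference between the sexes can therefore come from fewer cells of a type or from less RNA per cell, which bulk RNA cannot tell apart.

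In flies, sex is read in each cell from the X chromosome dose. The splicing regulator Sxl is made in full length in females only, directs female splicing of tra, and through tra sets the sex-specific splicing of the transcription factor genes dsx and fru; where Sxl is absent, msl-2 is translated and the dosage compensation complex, with its noncoding RNAs roX1 and roX2, assembles on the single male X. In the head, the fat body lining the brain is a well known site of sex-biased expression, with yolk protein genes in females and genes such as to and sxe2 in males.

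The 8 libraries held between 18322073 and 24866184 reads in exons, so that 3 reads, taken here as the floor of detection, were worth 0.121 to 0.164 counts per 1000000 (CPM). An exon was tested if it exceeded 2 CPM in at least 60% of the 8 libraries, which kept 31125 of 87508 exon entries and 8408 of 17753 genes. Markers of the head were present in all 8 libraries, with the photoreceptor list summing to 24598 to 27795 CPM in males and 18419 to 21533 CPM in females. Reads of other body parts were low and unequal. The 34 markers of testis and accessory gland, of which none was tested, summed to 15.5, 77.2, 74.1 and 71.4 CPM in males and to 5.90, 4.56, 5.23 and 7.52 CPM in females, with the sperm protein gene Mst98Ca, picked after its values were seen, at 8.30 CPM on average in males and 0.209 CPM in females. Annotated entries of the Y chromosome took 5, 12, 18 and 25 reads in the male libraries and 1, 0, 4 and 0 in the female libraries. Values are given in order of replicate number, 1 to 4 for males and 2 to 5 for females. Female 2 stood apart by muscle and antennal genes, and male 1 was lowest among the males in neuronal genes. Results that rest on these libraries are given with their values.

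With the edgeR exact test, a false discovery rate (FDR) under 0.2 and TMM scaling, 3130 exons (10.1% of those tested) were higher in males and 3768 (12.1%) were lower. By gene, where 1 called exon is enough, 1504 genes (17.9%) were higher, 1459 (17.4%) were lower and 24 of these carried exons in both directions. Taking only the tested exon of highest mean CPM in each gene, 1125 genes (13.4%) were higher and 913 (10.9%) were lower, and the median log2 fold change, male over female, was 0.09 across all 8408 genes. Most differences were small, and the large ones were mostly lower in males. Of the called genes, 59 were higher and 286 were lower by at least 2-fold, and 7 were higher and 30 lower by at least 4-fold. Leaving out female 2, female 3, female 4 or male 2 left 832, 813, 885 and 822 genes higher. The balance of the counts rested on the scaling: with library totals alone the median moved to 0.38 and 5411 genes were higher against 737 lower, while yolk protein reads alone took 7.41, 7.83, 8.35 and 6.91% of all female reads and between 0.0102 and 0.106% of all male reads. In every gene list described here, library totals gave as many or more genes higher, and as many or fewer lower, than TMM.

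The 3 yolk protein genes, which encode the lipoproteins that growing oocytes take up, had the widest separation of all. Yp1 (X:10054214-10055498) stood at 10.5, 240, 350 and 95.6 CPM in males and at 26849, 34358, 33081 and 26390 CPM in females. No male library came near a female one, although the males differed among themselves by more than the females did. The log2 fold change of Yp1 was -7.44 (SE 0.64, edgeR FDR = 1.49e-16), and those of Yp2 and Yp3 were -7.41 and -7.16. Male 1 was lowest and male 3 highest in all 3 genes. Male 1 was also the library with the fewest reads of testis and accessory gland markers, and the part of reads carried over from other flies or body parts in the male yolk values was not tested.

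Among fat body genes with a known sex bias, 1 was lower and 3 were higher in males. The gene fit, which encodes a secreted satiety peptide of the female fat body, had 9.73, 4.8, 4.22 and 4.47 CPM in males against 95.6, 63.1, 78.8 and 57.0 CPM in females, a log2 fold change of -3.66 (SE 0.26, FDR = 2.44e-32). Its male libraries all lay under 10 CPM, with male 1 above the other 3. Obp99b, a member of the odorant-binding protein family, had 425, 255, 343 and 254 CPM in males against 20.2, 19.3, 20.8 and 19.6 CPM in females (log2 fold change 4.00, SE 0.17, FDR = 8.58e-73). The female libraries were nearly level and the males spread over a wider range. The clock-controlled feeding gene to had 116, 112, 124 and 106 CPM at its exon of lowest p in males and 19.1, 16.5, 14.6 and 17.3 CPM in females (log2 fold change 2.76, SE 0.13, FDR = 8.14e-59). The lipase gene sxe2 had 64.6, 58.4, 49.8 and 48.8 CPM in males and 9.69, 9.08, 9.92 and 11.0 CPM in females (log2 fold change 2.48, SE 0.14, FDR = 4.14e-43). For both genes the lowest male value was more than 4-fold above the highest female value.

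**Figure D1:**
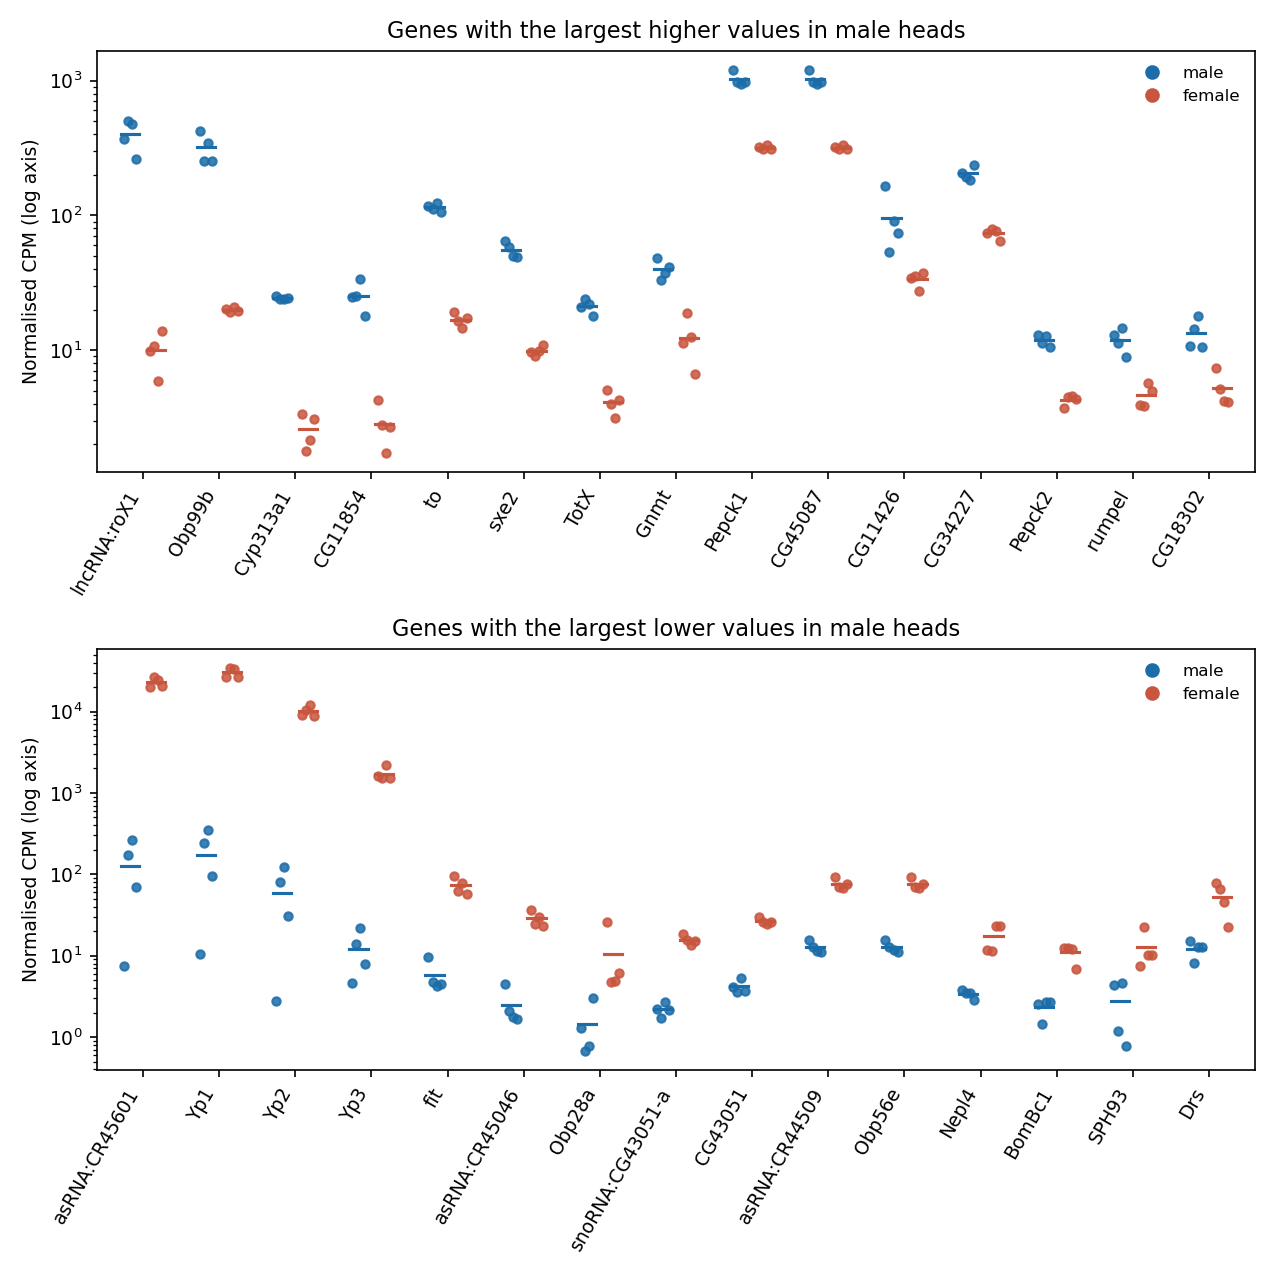
Normalised CPM on a log axis of the exon of lowest p for the genes with the largest called differences, male libraries (left of each pair) and female libraries (right), each point 1 library and each bar the mean of 4. The genes higher in males and those lower in males stand in separate blocks. Only genes whose libraries do not overlap between the sexes were eligible, so that the lack of overlap follows from the choice.

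The largest increase in males was in the dosage compensation RNA roX1 (X:3857230-3862061, in an interval shared in part with ec), which had 368, 497, 474 and 262 CPM in males and 9.87, 10.7, 5.88 and 13.9 CPM in females (log2 fold change 5.31, SE 0.25, FDR = 5.49e-62). The cytochrome P450 gene Cyp313a1 had 25.1, 23.9, 24.0 and 24.4 CPM in males against 3.35, 1.80, 2.16 and 3.08 CPM in females (log2 fold change 3.23, FDR = 2.04e-52). TotX, of the Turandot family of stress-induced secreted proteins, had 21, 24.1, 22.2 and 17.9 CPM in males against 5.05, 3.96, 3.13 and 4.27 CPM in females (log2 fold change 2.37, FDR = 3.62e-31). In both genes the lowest male library held more than 3 times the CPM of the highest female library. Both phosphoenolpyruvate carboxykinase genes, which act in gluconeogenesis, were higher. The interval that Pepck1 shares with CG45087 had 1199, 969, 941 and 979 CPM in males and 321, 310, 334 and 309 CPM in females (log2 fold change 1.68), and the reads of these 2 genes cannot be told apart; Pepck2, at 1.48, has an interval of its own. Gnmt, a glycine N-methyltransferase, was higher by 1.70, the sodium-coupled transporter gene rumpel by 1.37, and the genes CG11426, CG34227 and CG18302 by 1.5, 1.48 and 1.36. The tested exon of CG11854, at 3.14, overlaps bam on the map, and the counting took no account of strand.

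On the other side, the 15 genes with the largest decreases included the yolk genes, fit and members of the odorant-binding protein family. Obp56e had 15.8, 12.9, 11.7 and 11.2 CPM in males and 92.9, 69.4, 68.5 and 75.7 CPM in females (log2 fold change -2.57, SE 0.16, FDR = 6.89e-41), on an interval that overlaps the antisense RNA CR44509. CG43051 had a log2 fold change of -2.66 (FDR = 1.85e-43), and the small nucleolar RNA annotated within it had -2.84. Nepl4, of the neprilysin-like peptidase family, had 3.83, 3.49, 3.50 and 2.84 CPM in males and 11.8, 11.4, 23.1 and 23 CPM in females, so that the females fell into a lower and a higher pair, all above the males (log2 fold change -2.34, FDR = 5.41e-15). The immune genes BomBc1, Drs and SPH93 also belong here and are described with their lists, and the antisense RNAs CR45601 and CR45046 share their reads with Yp1 and fit. Obp28a, at -2.85, rested in part on female 2, which held 26 CPM against 4.75 to 6.21 CPM in the other females and 0.674 to 2.99 CPM in males; without female 2 its exon no longer passed the filter.

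Exons of the sex determination genes differed between the sexes by their place in the gene. The dsx gene has a common 5′ exon followed by a female-specific or male-specific 3′ end. Its common 5′ exon (3R:7959752-7961122) had 4.05, 4.68, 2.72 and 4.25 CPM in males and 6.30, 4.19, 4.42 and 4.21 CPM in females, a log2 fold change of -0.28 that did not pass the test (FDR = 0.506). The male exon at 3R:7930171-7930687 had 8.10, 4.52, 4.72 and 6.61 CPM in males and 0.581, 0.323, 0.701 and 0.797 CPM in females. The female exon at 3R:7934482-7935653 had 0.112, 0.278, 0.333 and 0.480 CPM in males and 9.16, 7.47, 7.71 and 6.78 CPM in females. Neither sex-specific exon reached 2 CPM in the other sex, and so both failed the filter of 5 of 8 libraries. With a filter of 4 of 8 libraries their fitted log2 fold changes were 3.33 and -4.68. These are given with no test, as are those of other exons under the filter of 5 libraries, since such an exon enters only through the sex in which it is high. The longer entry 3R:7931168-7935653, which contains the female exon, was tested by the filter of 5 libraries and was lower in males by a log2 fold change of -2.0 (FDR = 6.83e-15).

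Sxl was unequal along its length. Of its 21 tested entries, 14 were higher and 5 were lower in males. The entry that ends inside the gene at X:7082921-7084819 had 17.8, 30.6, 27.2 and 27.6 CPM in males and 12.1, 12.5, 10.7 and 13.2 CPM in females (log2 fold change 1.09, SE 0.17, FDR = 1.62e-06). At the far 3′ end, X:7076710-7079367 had 8.92, 15.6, 10.9 and 14.1 CPM in males and 41.1, 29.0, 24.4 and 27.5 CPM in females (log2 fold change -1.30, SE 0.20, FDR = 6.48e-07). The sexes did not overlap at either end, and male 1 was lowest of the males at both. Many Sxl entries overlap one another and share reads, so that the 21 entries are not separate measurements.

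The other genes of the pathway differed less or at single exons. None of the tested exons of tra passed the test, and its 3′ exon had a log2 fold change of 0.13 (FDR = 0.715). Of 8 tested entries of fru, 1 coding exon (3R:18434235-18435062) was lower in males, at 5.68, 8.88, 5.05 and 10.0 CPM against 10.9, 11.7, 8.73 and 12.0 CPM in females (log2 fold change -0.54, SE 0.22, FDR = 0.125). The sexes overlapped there, and leaving out single libraries raised the FDR to at most 0.289. A 5′ exon of fru at 3R:18513451-18515343, numbered 2 in its transcript, lay under the filter of 5 libraries. This exon held 0.260, 0.515, 1.05 and 0.739 CPM in males and 3.89, 4.70, 3.02 and 5.53 CPM in females. All males lay below all females (log2 fold change -2.77 with the filter of 4 of 8 libraries). The 3′ exon of msl-2, the limiting protein of the dosage compensation complex, was higher in males by 0.81 (FDR = 0.000764). The roX2 RNA held 16.2, 20.9, 21.8 and 12.4 CPM in males and 0.804, 1.29, 0.863 and 1.71 CPM in females, again under the filter of 5 libraries (3.94 with 4 of 8).

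**Figure D2:**
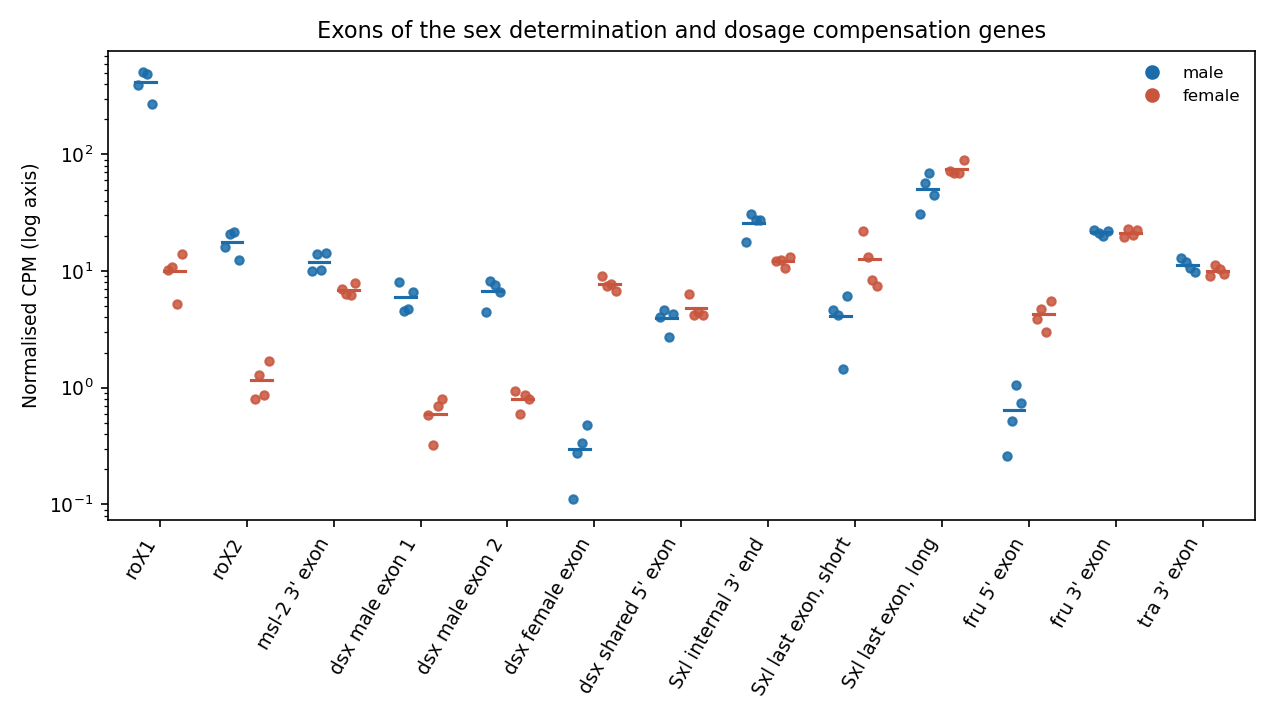
Normalised CPM on a log axis of exons of roX1, roX2, msl-2, dsx, Sxl, fru and tra, male libraries (left of each pair) and female libraries (right), with each point 1 library and each bar the mean of 4. The dsx male and female exons separate the sexes in opposite directions while the shared 5′ exon overlaps, and the internal and the last 3′ ends of Sxl separate them in opposite directions.

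Since the filter removes exons detected in 1 sex alone, these were listed separately as exons above 2 CPM in all 4 libraries of one sex and in none of the other. This limit was applied to CPM from library totals, without TMM factors. There were 305 such exons of 226 genes in males and 85 of 59 genes in females, and most of the male ones lay close to the limit: 29 of the 305 but 39 of the 85 differed by at least 4-fold in mean CPM. Library totals gave more genes higher in males than TMM did, so that the split of 305 and 85 may rest in part on the scaling. The split with TMM-scaled CPM is not given here. In males, the steepest coding gene was Cyp4d21 (sxe1, a P450 of the fat body), with 17.4, 20.9, 21.6 and 21.2 CPM in males and 0.268, 0.507, 0.216 and 1.08 CPM in females (log2 fold change 5.31 with the filter of 4 of 8 libraries). The cuticle protein gene Cpr76Bc had 4.46, 5.31, 6.22 and 6.06 CPM in males and 0.849, 1.06, 1.29 and 0.740 CPM in females (2.47). In females, Obp99a had 0.297, 0.634, 0.888 and 0.185 CPM in males and 61.7, 50.2, 57.0 and 49.4 CPM in females (-6.84), the reverse of its family member Obp99b. The gene rost had 1.71, 1.63, 1.28 and 0.961 CPM in males and 28.4, 26.7, 29.0 and 27.0 CPM in females (-4.31). For these genes no library of one sex lay within 3-fold of the other. Ndg, which encodes the basement membrane protein nidogen, had 0, 0.317, 0.278 and 0.0739 CPM in males and 5.67, 5.07, 5.34 and 4.84 CPM in females, with male 1 and male 4 at or under 3 reads. These genes were picked after their values were seen, and their levels are a description.

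Genes of innate immunity were lower in males as a group. Of 29 antimicrobial peptide genes tested at their exon of highest CPM, 24 were lower and 2 were higher in males, beside 10.9 and 13.4% of all genes, and their median log2 fold change was -0.99, beside 0.09 for all genes. Drs, which encodes the antifungal peptide drosomycin, had 15.3, 8.13, 12.6 and 12.7 CPM in males and 77.6, 65.1, 45.2 and 22.3 CPM in females (log2 fold change -2.11, SE 0.31, FDR = 3.23e-08). The bomanin gene BomBc1 had 2.53, 1.43, 2.72 and 2.7 CPM in males and 12.6, 12.5, 11.9 and 6.95 CPM in females (-2.23, FDR = 1.42e-14). Female 5 was lowest of the females in both. The bomanin genes BomS1 and BomBc3 fell by 1.26 and 1.16 on the log2 scale. The genes higher in males were the bomanin BomS6 (0.70, FDR = 0.0707) and the drosomycin-like Drsl4 (0.64, FDR = 0.0788), and neither was called without female 3, nor Drsl4 without female 5. Leaving out single libraries left between 16 (without male 2) and 24 genes lower, and 17 without female 2 and 18 with library totals, where the median was -0.68.

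Of 32 genes of the Toll and Imd pathways, which control these peptides, 13 were lower and 0 higher in males, with a median of -0.28. Of all genes, 10.9% were lower and 13.4% higher, with a median of 0.09. The list was not split into activators and inhibitors of the pathways. With library totals the median was 0.01, with 7 lower and 6 higher, beside a median of 0.38 for all genes. The sign of the list median rested on the scaling, and it lay below that of all genes with both scalings. The genes of lowest p were the protease gene psh, with 4.46, 3.41, 4.50 and 3.07 CPM in males and 7.37, 6.45, 8.41 and 8.89 CPM in females (-1.01, FDR = 5.87e-05), the serpin nec (-0.91), the amidase PGRP-SC2 (-1.26) and the receptor PGRP-LC (-0.56). The serine protease homolog SPH93, which is on no list, was lower, at a log2 fold change of -2.20, with males at 0.776 to 4.61 CPM and females at 7.46 to 22.5 CPM. Leaving out single libraries left 8 to 14 pathway genes lower. Counts of 8 came without female 3, without female 4 and without male 2.

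Cytosolic ribosomal protein genes moved together. Of 80 tested, 74 were lower in males and 0 were higher, beside 10.9 and 13.4% of all genes. All 80 fold changes were below 0, and their median was -0.66. RpL30 had 272, 201, 196 and 196 CPM in males and 395, 482, 482 and 393 CPM in females (-1.02, SE 0.16, FDR = 8.22e-07). RpS5a had 554, 472, 465 and 441 CPM in males and 867, 903, 1132 and 850 CPM in females (-0.96, FDR = 1.25e-06). In both genes every male library lay below every female library. The remaining 6 did not pass the test. With library totals the median was -0.36, 55 genes were lower and 1 was higher, and 4 fold changes lay above 0. Leaving out single libraries left between 56 (without female 4) and 76 lower. The tagged transgene of all flies carries a copy of RpL10A coding sequence, and reads of RpL10Ab, whose 5 tested entries fell by 0.74 to 0.86, may include it and cannot be told apart.

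Of 42 translation factors, 15 were lower and 0 were higher in males, beside 10.9 and 13.4% of all genes. Their median of -0.22 became 0.06 with library totals, where that of all genes moved from 0.09 to 0.38. The elongation factor eEF1alpha1, among the most abundant mRNAs of the cell, had 5519, 5236, 5606 and 4877 CPM in males and 9177, 11058, 10663 and 9014 CPM in females (-0.91, FDR = 1.81e-06), and eEF1gamma, eEF1beta and eIF3c followed with -0.85, -0.83 and -0.62. Lists of other protein machines held few called genes with TMM scaling. Mitochondrial ribosomal protein genes counted 3 higher and 2 lower of 72, with a median of 0.03, the proteasome 0 and 0 of 31, and the 5 complexes of oxidative phosphorylation 1 higher (in complex I) and 0 lower. Without male 4 the mitochondrial list had 9 higher, and without male 1 complex V had 2 lower. With library totals, 36 mitochondrial ribosomal protein genes, 23 proteasome genes and 23 of 32 complex I genes were higher. In each of these lists 0 were lower, so that their counts rested on the scaling. Of all 8408 genes, 4882 were higher and 470 lower with library totals, by the exon of highest CPM.

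Genes of the nervous system were higher in males at modest fold changes. Of 32 neuronal genes, 19 were higher and 0 lower, with a median of 0.50. Of all genes, 13.4% were higher and 10.9% lower, with a median of 0.09. The synaptic vesicle gene nSyb had 566, 643, 731 and 638 CPM in males and 405, 473, 374 and 506 CPM in females (0.55, SE 0.15, FDR = 0.0156), with no overlap. The potassium channel gene Sh, the active zone gene Rim and the axonal cytoskeleton gene futsch were higher by 0.82, 0.72 and 0.52. The pan-neuronal RNA-binding protein gene elav, picked after its values were seen, overlapped between the sexes, with 58.0, 98.5, 142 and 93.8 CPM in males and 66.7, 78.3, 82.8 and 111 CPM in females (0.21, FDR = 0.668). Of 10 nicotinic acetylcholine receptor subunits, 7 were higher and 1, nAChRbeta3, was lower (-1.07, FDR = 0.0168), where female 4 held 28.6 CPM against 8.94 to 13 CPM in the other females. The subunit nAChRalpha5 had 22.6, 51.1, 53.4 and 34.4 CPM in males and 17.8, 20.3, 20.8 and 32.6 CPM in females (0.82, FDR = 0.0333), where male 1 lay under female 5. Of 25 cell surface receptors of the dpr and DIP families, which pair neurons at synapses, 11 were higher and 0 lower, with a median of 0.51. DIP-delta had 2.45, 4.64, 3.66 and 3.07 CPM in males and 2.14, 1.57, 1.89 and 1.88 CPM in females (0.88, FDR = 0.0115), with no overlap and with male 1 nearest to the females.

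The counts of these lists changed with single libraries while their medians stayed above 0. The neuronal list had 8 genes higher without female 4, 9 without female 2 or male 2, 10 without female 3 or male 3, and up to 26 without male 1. The nicotinic subunits had 2 without female 2 and 3 without female 3, female 4 or male 2. The dpr and DIP families had 2 to 5 without any of female 2, female 3, female 4, male 2 and male 3, and 17 and 19 without male 1 and female 5. The level of the neuronal list, as the mean log2(CPM + 0.5) minus its mean over the 8 libraries, was -0.27, 0.41, 0.54 and 0.14 in males and -0.40, -0.26, -0.29 and 0.12 in females. Male 1 lay within the female range, male 4 was close to female 5, and male 2 and male 3 lay above all others.

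Photoreceptor genes were also higher, 20 of 39 with 0 lower and a median of 0.42, beside 13.4% higher and 10.9% lower of all genes. Gbeta76C, the eye-specific G protein subunit gene, had 226, 247, 286 and 222 CPM in males and 160, 174, 173 and 148 CPM in females (0.58, FDR = 0.00472). The rhodopsin gene Rh6 had 332, 296, 361 and 301 CPM in males and 178, 227, 252 and 206 CPM in females (0.58, FDR = 0.0092). The kinase gene inaC and the gene ninaG were higher by 0.67 and 0.76. The main rhodopsin gene ninaE, also picked after its values were seen, overlapped, at 14545, 11172, 8913 and 12618 CPM in males and 8959, 10198, 9759 and 8148 CPM in females (0.35, FDR = 0.244). Leaving out single libraries left 12 (without female 2) to 25 (without male 1) genes higher.

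Of 25 neuropeptide genes, 7 were higher in males and 0 lower, with a median of 0.32. Pdf, the output peptide of clock neurons, had 36.7, 50.0, 50.6 and 33.2 CPM in males and 23.8, 19.9, 20.2 and 25.3 CPM in females (0.94, SE 0.17, FDR = 4.16e-05). The glycoprotein hormone subunit gene Gpb5 had 10.1, 7.85, 7.0 and 5.91 CPM in males and 3.93, 2.77, 3.94 and 3.65 CPM in females (1.11, FDR = 4.58e-05). Both genes separated the sexes fully. Trissin and the drosulfakinin gene Dsk were higher by 0.79 and 0.68. The count was 4 without male 2 and 14 without female 5. Of 23 circadian genes, 2 were higher, to and Pdf, and 2 were lower, the transcription factor gene vri and the receptor gene Pdfr (-0.46, not called without female 3). Neither share exceeded that of all genes, 13.4% higher and 10.9% lower. The core clock genes per and tim, picked for their role, did not pass the test (-0.09 and -0.25). The count of higher clock genes was 7 without male 1 and 4 without female 5, and that of lower ones was 1 without female 3. The value of vri, 7.95, 10.7, 15.4 and 11.6 CPM in males and 26.6, 20.3, 59.2 and 21.9 CPM in females (-1.49, FDR = 0.00024), was highest in female 4. All flies were frozen in a window of 1 h, and collection times of single samples are not used here.

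Of 28 glial genes 7 were higher and 1, the blood-brain barrier receptor gene moody, was lower (-0.47, not called without female 2). Of all genes, 13.4% were higher and 10.9% lower. The astrocyte gene alrm had 41.1, 35.4, 35.0 and 35.4 CPM in males and 18.6, 19.2, 23.7 and 23.3 CPM in females (0.79, FDR = 4.65e-05), without overlap. The count of higher glial genes was 3 without female 4 and 4 without female 2 or male 3.

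**Figure D3:**
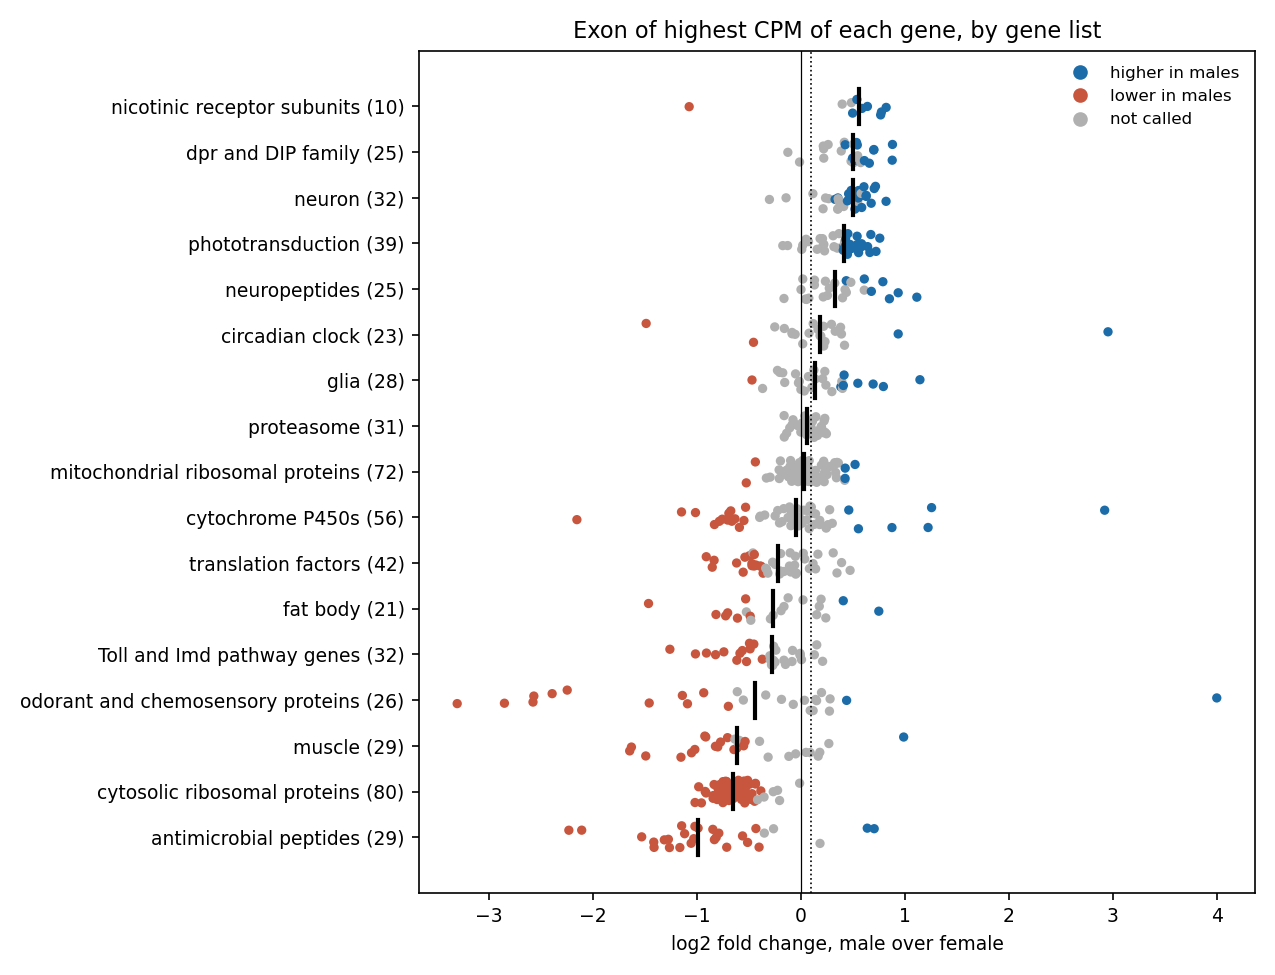
Log2 fold change, male over female, of the exon of highest CPM of each tested gene in 17 gene lists (number tested in brackets), coloured where called. Black bars are list medians and the dotted line is the median of all genes, 0.09. The antimicrobial peptide and ribosomal protein lists lie to the left, at -0.99 and -0.66, and the neuronal lists to the right, at 0.50 to 0.56, whereas the proteasome lies at 0.06.

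The fat body list was mixed. Of 21 genes, 7 were lower and 2 were higher in males, beside 10.9 and 13.4% of all genes. Their median of -0.27 was 0.02 with library totals, where that of all genes moved from 0.09 to 0.38. Tsf1, the iron carrier transferrin, had 462, 326, 380 and 427 CPM in males and 907, 1415, 1397 and 688 CPM in females (-1.47, SE 0.22, FDR = 1.44e-07). The fatty acid synthase gene FASN1 had 700, 525, 478 and 696 CPM in males and 1066, 1131, 1060 and 969 CPM in females (-0.82, FDR = 0.000194), and the lipoprotein gene apolpp and the acetyl-CoA carboxylase gene ACC were lower, at -0.70 and -0.61. Against this direction, the lipid droplet perilipin gene Lsd-1 had 34.7, 33.9, 33.1 and 40.1 CPM in males and 24.1, 21.1, 22.8 and 16.4 CPM in females (0.75, FDR = 0.000403). None of these 3 genes with values, picked by lowest p, overlapped between the sexes. In the whole list 10 of 21 genes did not overlap at their exon of highest CPM, beside 16.5% of all genes. In the insulin list, 1 of 13 was lower, the translation inhibitor gene Thor (-1.03, FDR = 4.18e-06), and 1 was higher, the insulin-binding protein gene ImpL2 (0.50, FDR = 0.0247). Both shares lay below those of all genes, 10.9% lower and 13.4% higher.

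Enzymes of detoxification and digestion split by gene rather than by family. Of 56 cytochrome P450 genes, 14 were lower and 6 were higher in males, beside 10.9 and 13.4% of all genes, with a median of -0.05. With library totals 9 were lower and 22 higher and the median was 0.23, beside 0.38 for all genes, and 0.09 with TMM. The sign of the list median rested on the scaling, and it lay below that of all genes with both scalings. Cyp4d1 had 1.67, 1.86, 2.55 and 2.22 CPM in males and 7.95, 9.63, 10.8 and 8.37 CPM in females (-2.15, SE 0.19, FDR = 1.22e-20), while its family member Cyp4d14 was higher by 1.26 (FDR = 6.64e-05). Of 26 glutathione S-transferase genes 5 were higher and 2 lower, of 13 UDP-glycosyltransferase genes 0 were higher and 4 lower, led by Ugt49C1 (-1.30, FDR = 1.27e-08, with 5 higher and 2 lower by library totals), and of 10 digestive enzyme genes 2 were higher and 3 lower, led by the glucosidase gene tobi (-1.19). Of 19 heat shock genes 3 were higher and 2 lower; 2 of the higher ones, Hsp22 and CG4456, share an interval and a fold change of 1.18. The glucokinase-like Hex-C was lower (-0.91) within a glycolysis list that counted 2 lower and 0 higher of 13. In these lists, and in the eye pigment list described further on, counts of 5 or fewer moved by 1 or 2 genes when 1 library was left out. The shares in the heat shock list lie near those of all genes, 13.4% higher and 10.9% lower.

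For muscle and odorant-binding genes the result rested on female 2. Of 29 muscle genes 16 were lower and 1, fln, was higher in males, with a median of -0.62. Of all genes, 10.9% were lower and 13.4% higher. Without female 2 the muscle count was 6 lower and 1 higher with a median of -0.24. With library totals it was 9 lower and 5 higher with a median of -0.33. Mlp84B had 37.3, 35.3, 17.7 and 23.6 CPM in males and 178, 62.6, 45.8 and 65.8 CPM in females, so that the other females also lay above the males (-1.63, and -1.03 without female 2). Of 26 odorant and chemosensory proteins 11 were lower and 2 higher, with a median of -0.45. Without female 2 the counts were 5 lower and 3 higher with a median of 0.11, without male 4 they were 6 lower and 2 higher with a median of 0.04, and without female 3, female 4 or female 5 the lower ones were 7, 6 and 6. Obp19a, an antennal gene, had 0.149, 0.317, 0.666 and 1.77 CPM in males and 18.8, 2.90, 2.86 and 4.39 CPM in females (-3.31, FDR = 0.000515). Female 2 held more than 4 times the CPM of any other library, and the share of antennae or muscle that each pool of heads retained was not tested.

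**Figure D4:**
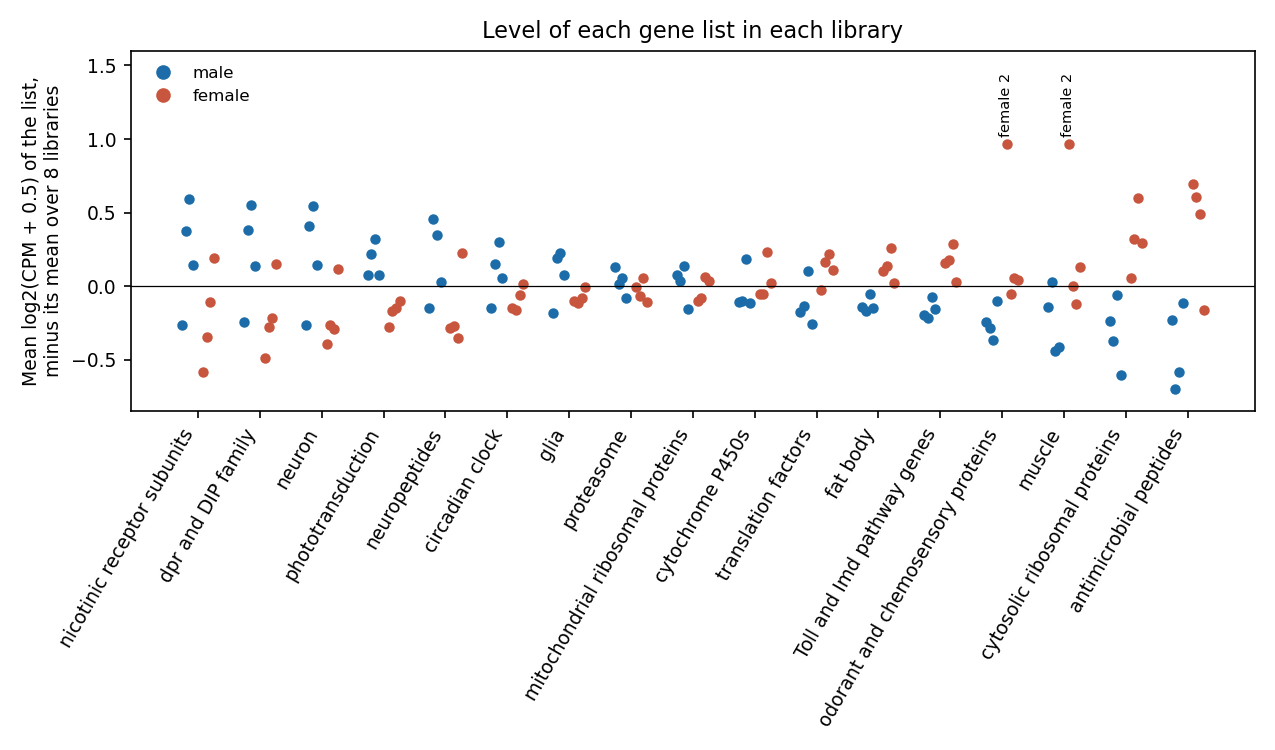
Level of 17 gene lists in each library, as the mean log2(CPM + 0.5) over tested genes minus its mean over the 8 libraries, male libraries left and female libraries right in each pair of columns, in order of replicate number. Female 2 lies far above the other libraries in the muscle and odorant lists, and male 1 lies below the other males in the neuronal lists, at -0.27 in the list named neuron.

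The white gene w, which encodes an eye pigment transporter and marks both transgenes, was lower in males at all 5 tested exons, with log2 fold changes of -0.70 to -1.08. At X:2792855-2793128 it had 9.99, 8.84, 8.27 and 10.6 CPM in males and 18.4, 21.7, 18.2 and 21.8 CPM in females (-1.08, SE 0.14, FDR = 9.36e-09), without overlap. All flies carried the w+mC marker on both transgenes over a w background, and reads of the marker and of the resident gene cannot be told apart. Among 20 eye pigment genes, which include w, 3 were lower (v, w and Hn) and 1 higher (st), beside 10.9 and 13.4% of all genes.

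By chromosome arm, sex differences were spread over the genome. On the X, 12.6% of 1433 genes were higher and 13.2% were lower in males, with a median of 0.04. The shares on the large autosomal arms ran from 12.3 to 13.8% higher and from 7.95 to 13% lower, with medians of 0.09 to 0.11. The small 4th chromosome stood at 19 higher (23.8%) and 3 lower (3.75%) of 80 genes, with a median of 0.33. With library totals the X again had the lowest median, 0.33, and the 4th the highest, 0.61. No test across genes was made.

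Fold changes also moved with the length of the gene and the place of the exon. Among genes in the longest of 5 equal groups by genomic span, from 10074 to 434041 bp, 22.9% were higher and 6.0% lower in males and the median was 0.23, whereas in the shortest group 9.92% were higher and 15.7% lower and the median was 0.05. In 4274 genes with at least 3 tested exons, the exon nearest the 3′ end had a higher log2 fold change than the exon nearest the 5′ end in 78.7%, by a median difference of 0.194. The median log2 ratio of 3′ to 5′ exon within a library, a sign of RNA integrity under poly(A) selection, was 1.44, 1.85, 2.18 and 1.49 in males and 1.37, 1.48, 1.63 and 1.68 in females. Male 2 and male 3 were highest, and the means of 1.74 ± 0.343 and 1.54 ± 0.142 (SD, n = 4 each) gave p = 0.371 in an exact two-sided permutation test. The same 2 male libraries held the highest levels of the neuronal list given above, and the part of this coverage in the fold changes of long and neuronal genes was not tested.

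**Figure D5:**
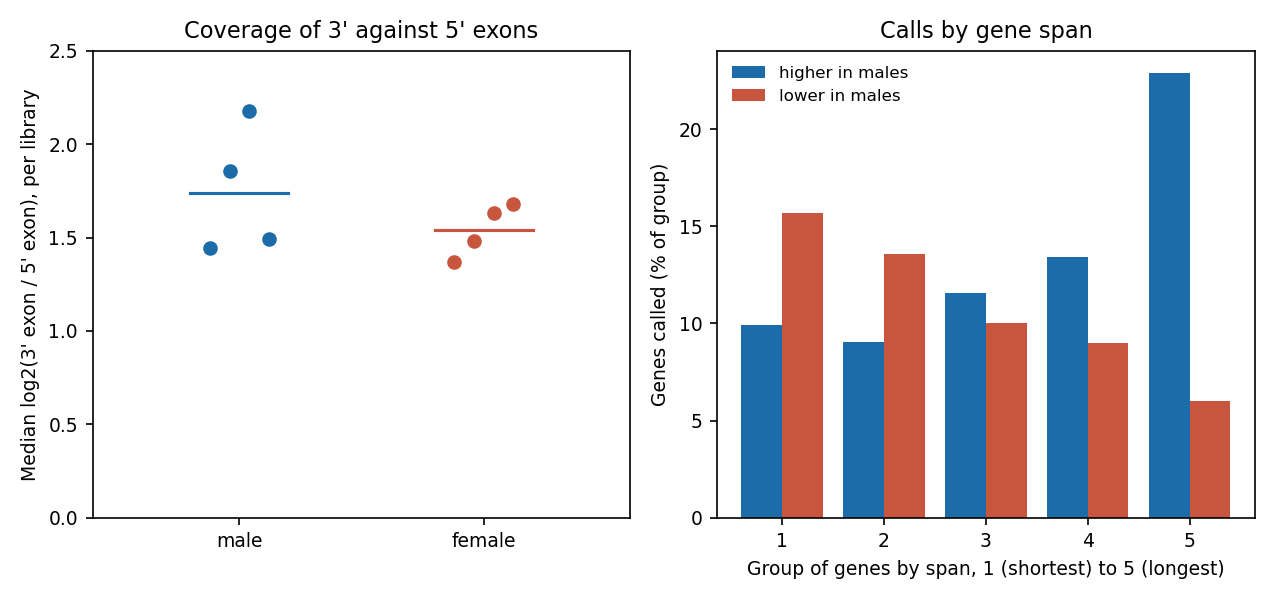
Left, median log2 ratio of the most 3′ to the most 5′ tested exon in each library, males left and females right, with bars for the means of 1.74 and 1.54; male 3 is highest at 2.18. Right, share of genes called higher and lower in males in 5 equal groups by genomic span; the share higher is 22.9% in the longest group and 9.92% in the shortest.

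Differences in the use of single exons, as the fold change of an exon relative to the other exons of its gene, were rare. With edgeR's diffSpliceDGE at FDR under 0.05, 12 of 28833 entries (0.0416%) in 5 of 6116 genes passed, and 621 had an unadjusted p under 0.05. They lay in Sxl, in the trehalase gene Treh, in mtd, in the gamma-tubulin complex gene Grip91 and in FBgn0050497. The 12 entries were 9 distinct intervals, and that of FBgn0050497 is also an entry of FBgn0266526. A first exon of Treh (2R:21084335-21084698) had 1.97, 1.35, 1.44 and 2.25 CPM in males and 5.85, 5.62, 7.76 and 4.27 CPM in females, a relative log2 change of -1.51 (FDR = 0.000216). The first exon of the mtd entry at 3R:5282665-5283379 had 5.39, 5.39, 6.5 and 6.13 CPM in males and 9.43, 12.7, 13.3 and 13.1 CPM in females, a relative change of -1.08. Both exons separated the sexes fully. With 1 library left out the FDR rose to at most 0.0152 for this Treh exon and 0.135 for that of mtd, which is above the limit of 0.05. It rose to at most 0.280 for Grip91, 0.677 for FBgn0050497 and, depending on the entry, 0.0430 to 0.198 for Sxl. The exons of Treh and mtd are both 5′ exons lower in males, the direction of the shift between 3′ and 5′ exons described above. The part of that shift in them was not tested. Leaving out single libraries left between 4 (without female 2) and 24 (without male 1) entries, and without entries that overlap another of their gene the count was 0, with 227 at an unadjusted p under 0.05.

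The sex difference of the whole head was set against that of the pull-down of fru P1 neurons by the interaction of sex and fraction across all 16 libraries. The fit treated these libraries as independent. It had no term for total mRNA and pull-down libraries that may come from the same lysate. With edgeR's quasi-likelihood test, 19 of 31299 exons (0.0607%) passed an FDR under 0.2, and 2993 had an unadjusted p under 0.05. Of 6431 tested exons that also differed between the sexes in total mRNA, 3 were among them, a share no larger than the 0.0607% of all exons. They lay in the neuropeptide gene Orcokinin, the serotonin transporter gene SerT and the gene cv-c. Their log2 fold changes between the sexes in total mRNA, from the fit of the 8 libraries, were 0.44, 0.46 and -0.82. A difference between the fractions that missed the threshold is not shown to be absent.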

How the data were processed

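The deposited files hold raw read counts per exon, made by the authors from poly(A)-selected, non-directional libraries sequenced as single-end reads and aligned to dm6 with STAR 2.7.2a; the submitters' processing notes also name SAMtools 1.2, featureCounts and edgeR. Only unique reads were counted, without strand, and 12.2% of entries overlap an entry of another gene. Of 17753 gene identifiers, 17626 had a symbol, and 98.9% of entries matched the annotation by gene and interval. Sums of exon counts ran from 18322073 to 24866184 per library.

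Members and gene lists were chosen with earlier results of these data known. The 4 male and 4 female total mRNA libraries, which the labels call biological replicates, were fitted on their own with R 4.3.3 and edgeR 4.0.16. Exons above 2 CPM in at least 60% of the 8 libraries were scaled by TMM and tested with edgeR's exact test, with Benjamini-Hochberg adjustment over all 31125 exons and an FDR under 0.2. Standard errors are those of the quasi-likelihood fit. Normalised CPM uses the TMM-scaled library size. Male libraries are numbered 1 to 4 and female libraries 2 to 5. The script was tested on simulated data.

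The text names the sex determination and dosage compensation genes, the yolk genes, fit, to, Cyp4d21, RpL10Ab and w. It also names, in each direction, the 15 genes with the largest fold change among called exons whose sexes do not overlap and whose higher mean is at least 10 CPM, up to 4 called genes of lowest p in each list and direction, and the genes of lowest p for exon use. Other names were picked after their values were seen. Of 42 lists with 1260 genes, 18 entries matched no gene. The list level adds 0.5 CPM before taking log2. No set test was run.

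The results were recomputed with RLE size factors or library totals alone, with DESeq2 1.42.0 or the quasi-likelihood fit as the test, with other filters and thresholds, a replicate block, 1 exon per gene and counts summed per gene, and without each library in turn.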

Additional observations from a re-analysis of the deposited data

Results flagged for a closer look

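In 33 of 328 groups of 4 libraries, over 164 named genes, 1 library stood far from the other 3, where chance gives about 1 in 20, or 16. Female 2 stood highest in Obp28a (26 CPM), Obp19a (18.8), Obp56d (211), Mlp84B (178), Act79B (62.2), TpnC41C (13.2), GstE3 (30.0) and Vha100-2 (24.3), and lowest in mtd (9.43) and mRpS33 (4.29). Obp28a, Obp19a, Obp56d, Mlp84B, Act79B and TpnC41C are odorant-binding or muscle genes. Female 4 stood highest in Yp3 (2226 CPM), vri (59.2), Cyp12c1 (20.9), nec (154), Cth (24.5) and mRpL45 (20.8), and lowest in Grip91 (5.39). Female 3 was highest in st (2.40), and female 5 was lowest in BomBc1 (6.95) and highest in the first exon of Cyp4d21 (0.0570), a value under 3 reads.

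Among males, male 1 stood highest in fit (9.73 CPM), its antisense RNA CR45046 (4.46), the interval of Pepck1 and CG45087 (1199), RpL30 (272), alrm (41.1), GstE8 (7.25) and Hn (69.6), and lowest in Oatp74D (5.54). Male 2 was lowest in BomBc1 (1.43), and male 3 was highest in fln (12.4) and px (21.4) and lowest in Vha100-2 (9.72).

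For 3 of 6431 exons called in total mRNA and tested across 16 libraries, the sex difference itself was called different between total mRNA and the pull-down of fru P1 neurons. Over all exons tested the share was 0.0607%, which that of these 3 did not exceed. The fit had no term for total mRNA and pull-down libraries that may come from the same lysate. In the fit of all 16 libraries the log2 fold change of Orcokinin, male over female, was 0.38 in total mRNA and -0.63 in the pull-down, a difference of 1.01 (edgeR quasi-likelihood FDR = 0.086). In SerT it was 0.41 in total mRNA and -0.90 in the pull-down, a difference of 1.30 (FDR = 0.12), and in cv-c it was -0.87 in total mRNA and 0.41 in the pull-down, a difference of -1.28 (FDR = 0.156).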

How the results depend on the processing

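The counts of genes called by the edgeR exact test moved with scaling and threshold more than with the test. Of the genes called, 1504 were higher and 1459 lower in males. The counts were 1469 and 1422 with the quasi-likelihood test, 1458 and 1551 with DESeq2 and 1362 and 1513 with RLE size factors. With library totals they were 5411 higher and 737 lower (88.0% higher, against 50.8% with TMM), and the median of all genes was 0.38 in place of 0.09. Without a filter 2496 genes were higher and 1649 lower, and at an FDR under 0.05 the counts were 525 higher and 872 lower. With at least a 2-fold change they were 59 and 286, and with 1 exon per gene 1209 were higher and 942 lower. Leaving out 1 library gave 813 to 2103 genes higher and 1032 to 1580 lower. The count of exons with different use, 12, was 0 without overlapping entries, 25 at an FDR under 0.2 and 4 to 24 when 1 library was left out. No called fold change of an exon named by the rule turned its sign where it could be fitted; with library totals the uncalled dsx 5′ exon, per and tim stood at 0.01, 0.20 and 0.02, against -0.28, -0.09 and -0.25 with TMM. Replicate numbers 2, 3 and 4 are shared, and same-numbered libraries had correlations of 0.05, -0.13 and -0.26 in their deviations from the group means. Libraries with different numbers ran from -0.57 to 0.45, and so few pairs cannot decide whether the numbers pair the samples. The fit with a replicate block, in which male 1 and female 5 have no partner, called 2006 higher and 1489 lower. Exons under about 2 CPM are limited by depth.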

Other observations

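Across all genes, 13.4% were higher and 10.9% lower in males. Of 12 juvenile hormone genes, 2 were higher in males, the epoxide hydrolase genes Jheh3 (13, 15.1, 14.8 and 11.7 CPM in males, against 5.23, 6.08, 8.95 and 8.49 CPM in females, log2 fold change 0.93, edgeR FDR = 0.000275) and Jheh1 (0.33, FDR = 0.137), and 2 were lower, JhI-26 (-0.43) and the receptor gene gce (-0.42); neither of these 2 was called without female 3, without male 4 or with library totals, and gce also not without female 4, female 5 or male 1, JhI-26 not without male 2, and Jheh1 not without female 2, female 3 or female 4. Of 20 ecdysone genes, 3 were higher, led by the nuclear receptor gene Eip78C (0.78, FDR = 0.00046), and 4 were lower, led by the ecdysone-inactivating P450 gene Cyp18a1 (-1.01, FDR = 0.000125); without male 1, 9 were higher, and without female 2 or female 4, 1 was. The lower ones were 2 when 1 of the 4 female libraries, male 2 or male 4 was left out. With library totals 11 ecdysone genes were higher and 2 lower, and 14 proton pump genes were higher and 0 lower. Of 8 Turandot and JAK-STAT genes, TotX (2.37) and TotA (0.99) were higher and TotM (-0.74, FDR = 0.0568, not called without female 4) was lower. TotA had 80.7, 69.4, 53.7 and 46.3 CPM in males and 36.1, 33.2, 29.8 and 26.5 CPM in females, without overlap. Of 18 genes of the vacuolar proton pump, 3 were higher, led by VhaM9.7-a (0.62), and 1, Vha100-2, was lower (-0.43), which was not called without any of female 2, female 3, female 4, male 2, male 3 and male 4. Of 3 tested ovary markers, orb was higher in males (0.71, FDR = 0.025), and 26 ovary and eggshell markers summed to 22.3 to 38.1 CPM in males and 23.4 to 28.2 CPM in females.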
